A study of Mus musculus with 18 samples.

Results

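Whether the enrichment of miRNAs by a pseudouridine (Ψ) antibody differed between 6 and 3 days after knockdown of Pus1 was measured in 12 of the 18 small RNA libraries of the series. They were chosen by their labels, as every library of the groups KD3_INPUT, KD3_IP, KD6_INPUT and KD6_IP, with replicates A, B and C in each. All 4 groups were NIH/3T3 cells, a mouse embryonic fibroblast line, and all carried the knockdown of Pus1, so that KD3 and KD6 differed in the days since knockdown, 3 against 6. The IP groups held small RNA recovered with the Ψ antibody and the input groups held small RNA before it. No unperturbed culture was matched to each day, so that time in culture and time since knockdown cannot be told apart. The other 6 libraries, input and IP of WT cells, entered the model for its estimate of the spread and are not described here. Nothing in the labels or methods states that the replicates were separate cultures, and the p-values then measure the spread between these samples, which may be technical. The Pus1 transcript was not analysed here.

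Ψ is an isomer of uridine that pseudouridine synthases make within RNA chains. PUS1 is a synthase that acts without a guide RNA, on tRNAs and other RNAs, and is known to favour a short sequence context around the uridine. miRNAs are cut from hairpin precursors, whose 5′ and 3′ arms (5p and 3p) can each be loaded into an Argonaute protein, and bases 2 to 8 of the loaded strand, the seed, pair with target mRNAs.

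The sequences below are those of the miRNAs that the comparison turns on, from RefSeq on the mouse build GRCm38.p6, with the seed in capitals. A mature sequence was found there for 475 of the 550 miRNAs tested. Members of the let-7 family share the seed GAGGUAG, and are shown because of their large share of the IP reads.
let-7d-5p: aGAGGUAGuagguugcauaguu
let-7f-5p: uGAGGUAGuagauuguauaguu
let-7i-5p: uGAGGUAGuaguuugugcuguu
The opposite arms of let-7 hairpins are shown because several of them are among the 10 abundant miRNAs with positive changes and the smallest p. Both let-7a-1-3p and let-7c-2-3p have the same sequence, so that their reads cannot be told apart.
let-7d-3p: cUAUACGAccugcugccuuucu
let-7a-1-3p: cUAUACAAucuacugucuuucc
let-7c-2-3p: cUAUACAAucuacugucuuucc
The miRNAs with the seed AGCAGCA (miR-15/16 family) and with the seed AAAGUGC (miR-17 family) are shown because every tested member of both families had a negative change.
miR-16-5p: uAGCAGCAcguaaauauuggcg
miR-322-5p: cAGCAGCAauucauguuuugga
miR-17-5p: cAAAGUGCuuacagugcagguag
miR-20a-5p: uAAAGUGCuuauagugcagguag
The last set has a seed of its own in each line and holds the other miRNAs described one by one.
miR-17-3p: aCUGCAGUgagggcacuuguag
miR-106b-3p: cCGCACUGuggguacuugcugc
miR-27a-5p: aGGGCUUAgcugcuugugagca
miR-30c-1-3p: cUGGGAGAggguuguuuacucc
miR-342-3p: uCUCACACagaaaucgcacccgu
miR-31-5p: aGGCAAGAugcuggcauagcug
miR-7a-5p: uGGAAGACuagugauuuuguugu
miR-192-5p: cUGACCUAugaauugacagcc
miR-21a-5p: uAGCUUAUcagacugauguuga
miR-17-3p lies at chr14:115043721-115043742 on the plus strand, in an exon of the noncoding host gene Mir17hg, and miR-17-5p (chr14:115043684-115043706) and miR-20a-5p (chr14:115044183-115044205) lie in the same transcript. miR-16-5p is encoded by 2 loci, in an intron of Smc4 (chr3:69009918-69009939, plus strand) and in an intron of Dleu2 (chr14:61631936-61631957, minus strand), and its reads were summed over both. miR-30c-1-3p lies in an intron of Nfyc (chr4:120769546-120769567, minus strand), miR-342-3p in an intron of Evl (chr12:108658680-108658702, plus strand) and miR-106b-3p in an intron of Mcm7 (chr5:138165746-138165767, minus strand).

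Replicate A of the KD6 input stood apart from the other libraries. It held 241109 mapped reads, against 3989031 to 15099781 in the other 11, so that 3 counts were worth 13.4 CPM (miRNA reads of a library scaled to a common total) there and at most 1.07 CPM elsewhere. miR-21a-5p took 48.1% of its miRNA reads, against 32.8% and 29.5% in replicates B and C of the same group. The enrichment change is therefore given both ways, with this library in the fit and left out of it. Levels below are CPM scaled by median-ratio factors. These factors ran from 0.611 to 0.851 in the KD6 IP libraries, from 0.893 to 1.00 in the KD3 IP libraries and from 0.902 to 1.44 in the KD6 inputs. Intervals and limits from counts cover counting error only.

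The fibroblast label was checked against marker miRNAs in the input libraries. The 7 fibroblast and mesenchymal markers summed to 450100 to 459800 CPM of unscaled miRNA reads in the KD3 inputs and to 392500 to 535900 CPM in the KD6 inputs, of which miR-21a-5p was the most abundant. The 5 pluripotent cell markers had no reads, and the blood, endothelial and epithelial lists reached at most 4.44 CPM. The 3 neuronal markers summed to 3445 to 3598 CPM at KD3 and 3354 to 4017 CPM at KD6, nearly all from miR-9-5p. The muscle markers summed to 85.6 to 103 CPM at KD3 and 165 to 305 CPM at KD6, with miR-133a-3p and miR-208a-3p at 0. The liver marker miR-122-5p was at 23.1 to 30.8 CPM at KD3 and 60.4 to 84.6 CPM at KD6. The part of these 2 lists in the results was not tested. In bulk samples, fewer cells of a type and less RNA per cell cannot be told apart.

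The comparison asked whether the IP-to-input ratio of a miRNA at KD6 differed from that at KD3. With all libraries, 1 of 550 miRNAs passed an edgeR adjusted p of 0.05 (0.182%), and this was miR-17-3p, the 3p arm of the miR-17 hairpin, which fell. At an unadjusted p under 0.05 there were 112 miRNAs (20.4%), 68 higher and 44 lower, and the median change over all miRNAs was 0.16 on the log2 scale. Without replicate A of the KD6 input, 21 of 596 miRNAs passed (3.52%), 8 higher (1.34%) and 13 lower (2.18%), with a median change of 0.04. Among the 13 that fell were miR-17-5p, miR-31-5p, miR-16-5p and miR-30c-1-3p, and among the 8 that rose were miR-21a-5p, miR-192-5p, miR-7a-5p and miR-10b-5p.

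**Figure D1:**
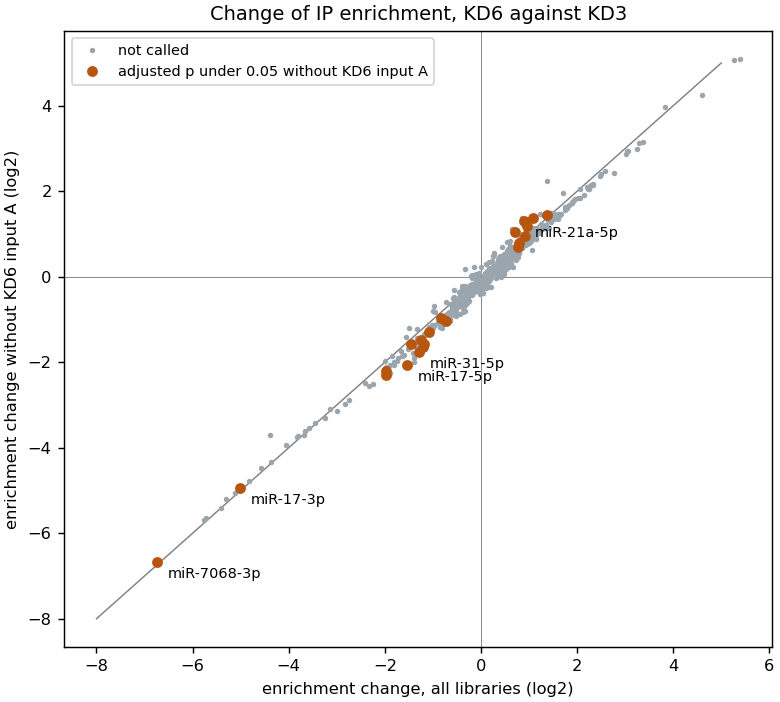
Enrichment change of each miRNA (log2, KD6 against KD3) with all libraries on the x axis and with KD6_INPUT A left out on the y axis, with the line of equal values in grey. Orange points are the 21 miRNAs called without that library, and all 21 lie on the same side of 0 in both fits, which share every other library.

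The 21 calls kept their sign with all libraries, and 20 of them had an unadjusted edgeR p under 0.05 there. The fits share every library except KD6_INPUT A, so this agreement is largely built in and is no independent evidence. The change was larger in size without replicate A for 17 of the 21, which their selection in that fit favours. Restricting the fit without replicate A to the 550 miRNAs tested with it also gave 21 calls. Both the IP and the input side enter the change by its definition. Without replicate A, the IP libraries differed between days for 15 of the 21 and the input libraries for 6 (edgeR adjusted p under 0.05). Over all 596 miRNAs the shares that differed were 21.3% and 8.39%. The 21 were picked by the difference between IP and input in the same libraries, so counts above those shares are favoured by the selection.

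**Figure D2:**
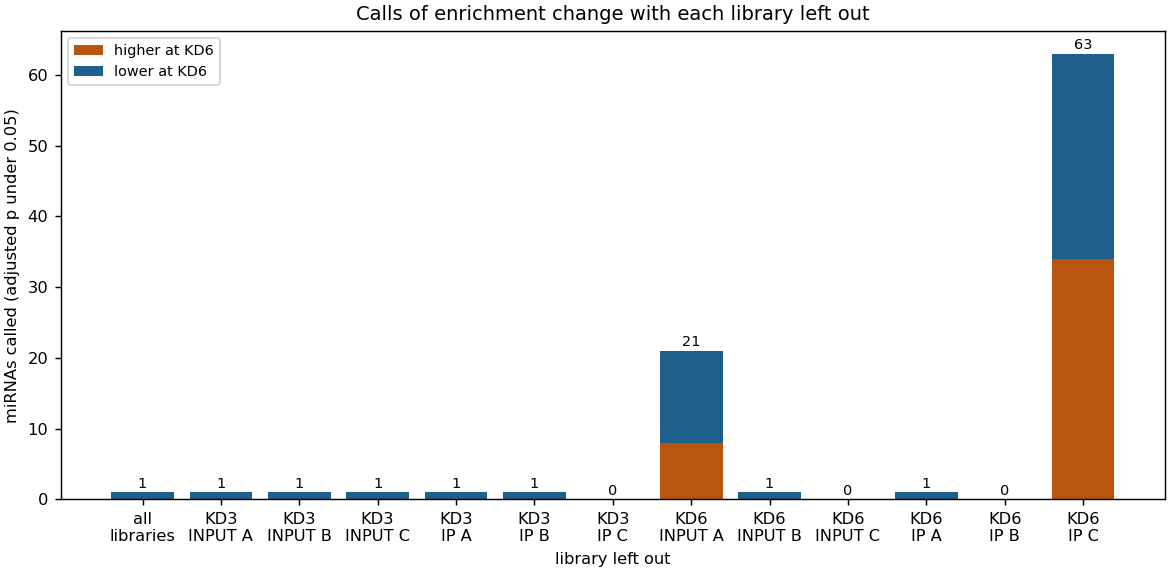
Number of miRNAs called for the enrichment change (edgeR adjusted p under 0.05, bars split by direction) with all libraries and with each of the 12 libraries left out. The count was 21 without KD6_INPUT A, 63 without KD6_IP C, 0 without KD3_IP C, KD6_INPUT C or KD6_IP B, and 1 otherwise.

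The number of calls depended on single libraries. With KD6_IP C omitted it rose to 63, of which 34 were higher and 29 lower. Omitting KD3_IP C, KD6_INPUT C or KD6_IP B left no edgeR call, with 90, 87 and 99 miRNAs at an unadjusted p under 0.05. DESeq2, on the counts of all 18 libraries, called 13, of which 9 were higher and 4 lower.

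miR-17-3p was the miRNA with the smallest p in both fits. Its scaled levels in the KD3 inputs were 16.4, 18.5 and 15.9 CPM (A, B, C), and in the KD6 inputs 39.5, 14.99 and 23.3 CPM, where the first value rests on 8 counts. In the KD3 IP libraries it was at 1.87, 3.01 and 3.66 CPM, and in the KD6 IP libraries at 0.404, 0 and 0 CPM. The input groups overlapped and the IP groups did not, all 3 KD6 IP libraries being lower than all 3 KD3 IP libraries. Of all 550 miRNAs, the IP groups did not overlap for 138 (25.1%) and the input groups for 133 (24.2%), and the cases named below are to be read against these shares. Over the summed libraries the IP counts were 36 at KD3 and 1 at KD6, a ratio of 31.1 after scaling with a 95% exact counting interval from 5.24 to 1263. The fitted enrichment change was -5.01 ± 0.945 (SE, edgeR adjusted p = 0.0158) with all libraries and -4.94 ± 0.91 (edgeR adjusted p = 0.0128) without replicate A. With so few IP counts at KD6, this fitted value depends on the small count that the model adds to zeros. Leaving out single libraries gave values from -7.81 to -4.01 and edgeR adjusted p from 0.00652 to 0.129. miR-17-3p did not pass without KD3_IP C, KD6_INPUT C or KD6_IP B. miR-7068-3p, called lower without replicate A, was also at 0 in all 3 KD6 IP libraries against 17 summed counts at KD3. On the IP side the lower limit of the 95% exact counting interval was 3.57-fold lower. A chosen floor of 3 counts over the KD6 IP group would give 4.90-fold.

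miR-106b-3p, the 3p arm of a hairpin in the miR-106b/25 cluster, had the next smallest p among abundant miRNAs that were lower. It was at 436, 419 and 478 CPM in the KD3 inputs and at 410, 443 and 398 CPM in the KD6 inputs. In the IP libraries it was at 552, 428 and 459 CPM at KD3 and at 226, 213 and 316 CPM at KD6. The inputs overlapped and the IP groups did not, with the KD6 IP libraries lower. The change was -0.84 ± 0.261 (edgeR adjusted p = 0.116) with all libraries and -0.97 ± 0.254 (edgeR adjusted p = 0.0371) without replicate A. miR-27a-5p, from the miR-23a/27a/24 cluster, was at 379.5, 357 and 367 CPM in the KD3 inputs and 592, 370 and 340 CPM in the KD6 inputs, and its IP levels were 152, 151 and 141 CPM at KD3 and 59.9, 83.2 and 119 CPM at KD6. Its IP groups did not overlap either. It did not pass in either fit, with a change of -0.95 ± 0.326 (edgeR adjusted p = 0.117) with all libraries and -0.82 (edgeR adjusted p = 0.104) without replicate A.

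Of the abundant miRNAs with positive values, none passed with all libraries, and the smallest p was that of miR-7a-5p, which is made from 2 hairpins and is known for its part in neuronal and endocrine cells. It was at 7205, 6797 and 6611 CPM in the KD3 inputs and 9193, 8461 and 8152 CPM in the KD6 inputs. In the IP libraries it was at 18055, 16874 and 19231 CPM at KD3 and 42012, 35458 and 38568 CPM at KD6. Both pairs of groups were apart, with KD6 higher, and the IP side rose by more (1.10 on the log2 scale) than the input side (0.32). The enrichment change was 0.78 ± 0.197 (edgeR adjusted p = 0.116) with all libraries and 0.70 ± 0.181 (edgeR adjusted p = 0.0371) without replicate A.

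let-7d-3p, the minor arm of its hairpin, was at 227, 241 and 280 CPM in the KD3 inputs and 158, 244 and 229 CPM in the KD6 inputs, and in the IP at 1331, 1840 and 1905 CPM at KD3 and 4590, 3042 and 2103 CPM at KD6. The IP groups were apart, but the 3 KD6 IP values spread widely. Its change was 1.14 ± 0.325 (edgeR adjusted p = 0.116), and 0.88 (edgeR adjusted p = 0.106) without replicate A. miR-485-5p, of the imprinted Dlk1-Dio3 region, was at 35.5, 36.7 and 40.6 CPM in the KD3 inputs and 29.6, 27.5 and 20.3 CPM in the KD6 inputs, where the first value rests on 6 counts. Its IP levels were 244, 255 and 193 CPM at KD3 and 375, 319 and 241 CPM at KD6. Here the inputs were apart, with KD6 lower, and the IP groups overlapped, and the change was 1.06 ± 0.305 (edgeR adjusted p = 0.116), or 0.97 (edgeR adjusted p = 0.0693) without replicate A. The other named miRNAs on this side that did not pass with all libraries were miR-455-5p (1.37), miR-1198-5p (1.12), miR-10b-5p (0.79), let-7c-2-3p (1.14), miR-30d-5p (0.91), miR-221-5p (0.81) and let-7a-1-3p (1.14), all with an edgeR adjusted p of 0.116. On the lower side the others were miR-31-5p, miR-17-5p, miR-342-3p, miR-322-3p, miR-16-5p, miR-181d-5p and miR-152-3p, with values from -1.55 to -0.80 and edgeR adjusted p from 0.13 to 0.162.

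**Figure D3:**
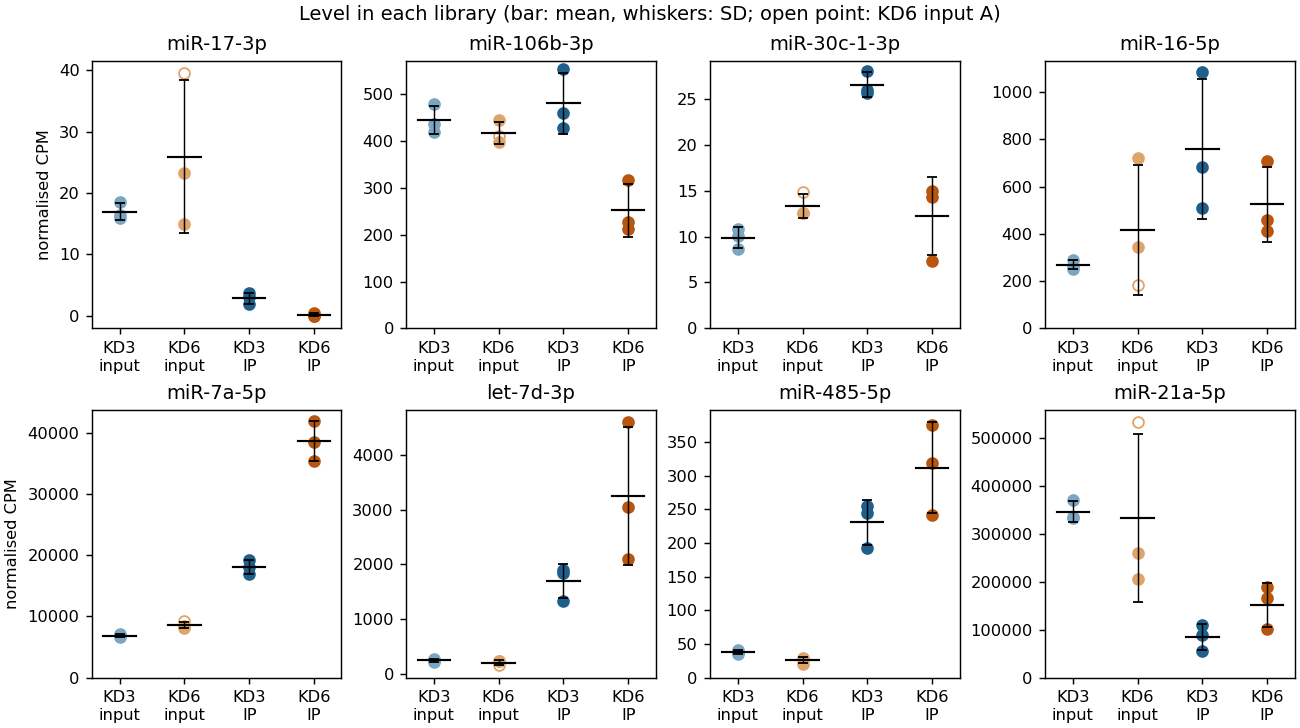
Scaled level (CPM, linear axis) of 8 miRNAs in each of the 12 libraries by group, with the mean (bar) and SD (whiskers, n = 3) and replicate A of the KD6 input as an open point. The KD6 IP points of miR-17-3p, miR-106b-3p and miR-30c-1-3p lie under all KD3 IP points, and those of miR-7a-5p and let-7d-3p over them, where the IP groups of 25.1% of all miRNAs did not overlap.

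Some calls without replicate A drew on the input side, where the 3 KD6 inputs differed among themselves. miR-17-5p was at 233, 222 and 198 CPM in the KD3 inputs and at 114, 540 and 684 CPM in the KD6 inputs, with replicate A the lowest of all. In the IP it was at 25.4, 15.1 and 41.3 CPM at KD3 and 17.4, 13.3 and 29.0 CPM at KD6, and these groups overlapped. Its change was -1.55 ± 0.573 (edgeR adjusted p = 0.133) with all libraries and -2.06 ± 0.41 (edgeR adjusted p = 0.0132) without replicate A. miR-31-5p, a fibroblast-expressed miRNA, was at 1854, 1955 and 1980 CPM in the KD3 inputs and 899, 2297 and 3369 CPM in the KD6 inputs. It was at 352, 243 and 430 CPM in the KD3 IP and 110, 122 and 248 CPM in the KD6 IP. The IP groups of miR-31-5p overlapped only in that the highest KD6 library was over the lowest KD3 library, and its change was -1.28 ± 0.466 (edgeR adjusted p = 0.13) with all libraries and -1.76 ± 0.356 (edgeR adjusted p = 0.0132) without replicate A.

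On the higher side, miR-21a-5p, the most abundant miRNA of these cells and a well-known oncogenic miRNA, was at 370204, 334962 and 331621 CPM in the KD3 inputs and 533327, 259156 and 205686 CPM in the KD6 inputs. In the IP it was at 109020, 88938 and 54336 CPM at KD3 and 165673, 188166 and 100449 CPM at KD6. The groups overlapped on both sides. Its change was 0.90 ± 0.401 (edgeR adjusted p = 0.206) with all libraries and 1.31 ± 0.312 (edgeR adjusted p = 0.0371) without replicate A. miR-192-5p, known from liver and gut, was at 231, 220 and 213 CPM in the KD3 inputs and 346, 173 and 124 CPM in the KD6 inputs, and in the IP at 18.7, 15.8 and 11.8 CPM at KD3 and 32.4, 31.1 and 23.6 CPM at KD6, where the groups were apart. It had the smallest p among those that rose without replicate A, with a change of 1.38 ± 0.307 (edgeR adjusted p = 0.0299), against 1.08 (edgeR adjusted p = 0.13) with all libraries.

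The study named 4 miRNAs as changed by the Pus1 knockdown, and since it picked them from these libraries their values are no independent evidence of a direction. None passed with all libraries, and their median change was -1.11 beside 0.16 over all miRNAs. Without replicate A, 2 of 4 fell, where 2.18% of all miRNAs fell, and the median was -1.38 beside 0.04.

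miR-16-5p, which represses cell-cycle genes, was at 265, 253 and 290 CPM in the KD3 inputs and 183, 346 and 720 CPM in the KD6 inputs, and in the IP at 509, 684 and 1084 CPM at KD3 and 458, 413 and 707 CPM at KD6. Both pairs of groups overlapped. Its change was -1.22 ± 0.462 (edgeR adjusted p = 0.142) with all libraries and -1.65 ± 0.398 (edgeR adjusted p = 0.0371) without replicate A. miR-30c-1-3p, a minor arm of low abundance, was at 10.9, 8.64 and 10.1 CPM in the KD3 inputs and 14.8, 12.5 and 12.5 CPM in the KD6 inputs, where the first value rests on 3 counts, and in the IP at 28.0, 25.6 and 25.9 CPM at KD3 and 14.96, 7.31 and 14.3 CPM at KD6. Neither pair overlapped, with the input values higher and the IP values lower at KD6, and the input difference did not pass (0.36, edgeR adjusted p = 0.531). Its change was -1.46 ± 0.388 (edgeR adjusted p = 0.116) with all libraries and -1.56 ± 0.389 (edgeR adjusted p = 0.0371) without replicate A.

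miR-342-3p was at 80.3, 74.0 and 80.0 CPM in the KD3 inputs and 74.1, 88.6 and 112 CPM in the KD6 inputs, and in the IP at 198, 111 and 173 CPM at KD3 and 77.7, 73.1 and 141 CPM at KD6. The groups overlapped on both sides. Its change of -0.997 ± 0.372 (edgeR adjusted p = 0.134) became -1.19 (edgeR adjusted p = 0.0681) without replicate A. miR-20a-5p, of the miR-17 family, was at 868, 818 and 813 CPM in the KD3 inputs and 504, 1347 and 1821 CPM in the KD6 inputs, and in the IP at 1423, 1409 and 2512 CPM at KD3 and 2121, 1821 and 2398 CPM at KD6. Its groups overlapped too, and its change was -0.33 ± 0.411 (edgeR adjusted p = 0.678), or -0.81 (edgeR adjusted p = 0.106) without replicate A.

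The let-7 family restrains proliferation and promotes differentiation. Its 9 listed 5p members made up 41.0% ± 2.80 of miRNA reads in the KD3 IP and 44.8% ± 0.985 in the KD6 IP (SD, n = 3). In the inputs the shares were 16.8% ± 0.808 and 18.7% ± 4.19. All 9 were tested and none passed, in either fit. let-7j and let-7k were tested too but lie outside this list, and were named after their values were seen. Neither was called in either fit. let-7k was among the calls that were lower with no factor and with total mapped reads. Its IP counts were 18.9, 18.2 and 59 at KD3 and 7.1, 6.5 and 12.8 at KD6. let-7j was among the DESeq2 calls. With all libraries all 9 values were positive, the lowest being that of let-7e-5p (0.03) and the highest that of let-7d-5p (1.06), with a median of 0.58. Of all 550 miRNAs, 315 (57.3%) were positive. Library size with no factor turned let-7b-5p, let-7e-5p, let-7g-5p and miR-98-5p negative and brought the median to 0.01, where the median of all miRNAs was -0.47, so that the family stayed 0.48 above it, beside 0.42 with median-ratio factors. Without replicate A the median was 0.39 and 2 of the 9, let-7b-5p (-0.01) and let-7e-5p (-0.17), were negative, where 53.0% of all miRNAs were positive, and with no factor all 9 were negative (median -0.25, against -0.56 over all). With median-ratio factors, 6 of the 9 rose at KD6 on the IP side alone (median 0.64), beside 56 of 550 miRNAs that rose (10.2%) and a median of 0.10 over all. With no factor, 15 of 98 IP calls over all miRNAs were higher. As unscaled shares of miRNA reads, the 9 summed to 39.4%, 39.4% and 44.2% in the KD3 IP and 45.9%, 44.3% and 44.1% in the KD6 IP, which overlap. Without replicate A, 6 rose and let-7e-5p fell on the IP side (median 0.51). In the inputs none of the 9 passed with all libraries (median -0.05), and without replicate A miR-98-5p rose (0.66, edgeR adjusted p = 0.017) and the median was 0.12.

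Of the 12 let-7 3p arms 11 were tested and none passed, with 10 positive and a median of 0.85, or 0.79 without replicate A. let-7a-1-3p and let-7c-2-3p have the same sequence and nearly the same counts. They are not separate measurements, yet each counts in the 11, the 10 and the median. The highest value, 3.38 for let-7i-3p, had an unadjusted p of 0.0333 and rests on IP counts of 1.0 at KD3 and 11 at KD6, each summed over a group, and let-7f-2-3p was the one member below 0 (-0.83).

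The families with a negative change in every tested member were the miR-15/16 family, the miR-17 seed family and the miR-181 family. The 6 members of the miR-15/16 family, which limit the cell cycle, had a median of -1.23, or -1.56 without replicate A, where miR-16-5p and miR-322-5p passed. The 6 members of the miR-17 seed family, which favour proliferation, had a median of -0.83, or -1.16 without replicate A, where miR-17-5p passed. The 4 members of miR-181, known in lymphoid and muscle differentiation, had a median of -1.002, or -1.31, and miR-181d-5p passed without replicate A. Over all miRNAs the medians were 0.16 and 0.04.

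In these 3 families the input values at KD6 leaned higher. The medians of the input difference were 0.38, 0.53 and 0.45 on the log2 scale with all libraries, beside -0.08 over all miRNAs, and no member passed there. Without replicate A the input medians were 0.52, 0.65 and 0.68, beside -0.08 over all, and miR-16-5p, miR-17-5p, miR-20a-5p and miR-181d-5p rose in the inputs, where 3.02% of all miRNAs rose. On the IP side with all libraries the medians were -0.82, -0.47 and -0.72, and 2, 0 and 1 members fell, where 10.2% of all miRNAs fell. Without replicate A the IP medians were -0.95, -0.60 and -0.85 and the numbers that fell were again 2, 0 and 1, where 12.6% of all fell. The lowest values within them, -5.31 for miR-497a-5p and -5.12 for miR-106a-5p, belonged to miRNAs that did not pass, and rest on IP counts summed over a group of 8.0 at KD3 and 0 at KD6 for miR-497a-5p and of 5.6 and 0.5 for miR-106a-5p.

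**Figure D4:**
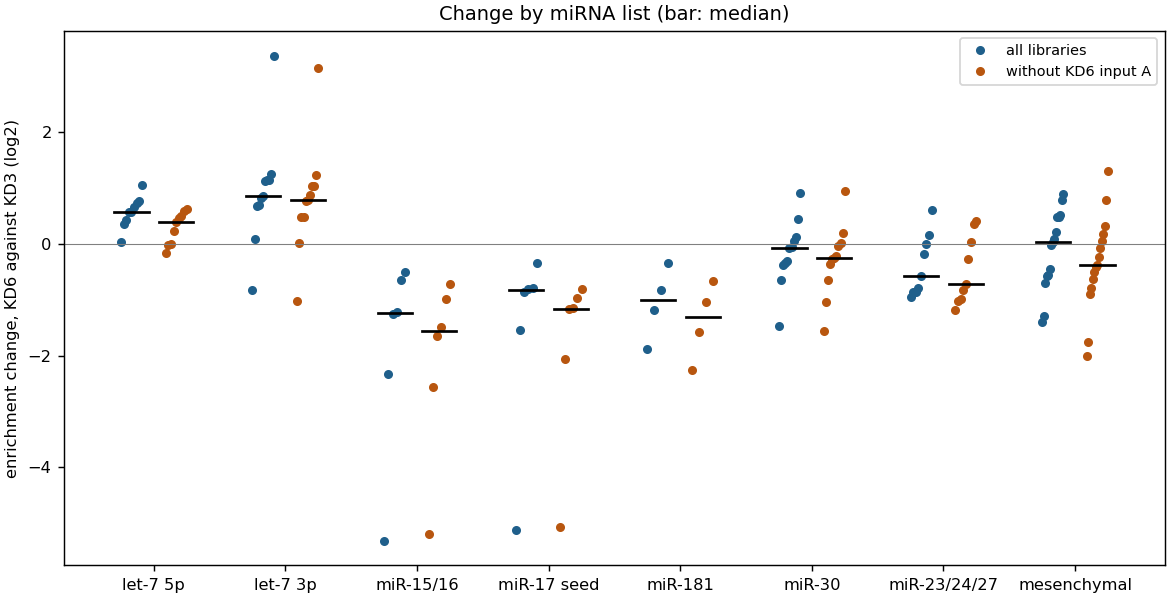
Enrichment change (log2, KD6 against KD3) of each tested member of 8 miRNA lists, with all libraries in blue and with KD6_INPUT A left out in orange, and the median as a bar. Both sets of medians are positive for the let-7 lists and negative for miR-15/16, miR-17 seed, miR-181, miR-30 and miR-23/24/27, while the mesenchymal median goes from 0.04 to -0.37.

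Among the other lists, of 11 miR-30 family members, 4 were positive (median -0.08), and without replicate A miR-30d-5p rose (0.94) and miR-30c-1-3p fell. Of 9 members of the miR-23, 24 and 27 families, none passed in either fit, with a median of -0.58, or -0.72 without replicate A. The 15 mesenchymal miRNAs had 8 positive values (median 0.04), and without replicate A miR-21a-5p and miR-10b-5p rose and miR-31-5p fell. The 11 tested members of the miR-17/92 and related clusters outside the miR-17 seed had a median of -0.16 and included miR-17-3p, with miR-106b-3p also lower without replicate A. The list of miR-99 and miR-100 relatives and their cluster partners had a median of -0.25 with none of 6 passing. The 3p arms of the Dlk1-Dio3 miRNAs had a median of -0.20 with none of 31 passing, and the Sfmbt2 cluster a median of 0.12 with none of 24 passing. The 5p arms of the Dlk1-Dio3 region, such as miR-485-5p, were not in that list. Without replicate A, miR-381-3p of the Dlk1-Dio3 region rose (1.05).

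Each side alone held more calls than their difference. In the IP libraries 112 of 550 miRNAs passed (20.4%), 56 higher and 56 lower at KD6 (10.2% each), led by miR-7a-5p (1.10). Without replicate A these were 127 of 596 (21.3%), 52 higher (8.72%) and 75 lower (12.6%). The split of the IP calls by direction depended on the scaling. With all libraries and no factor, 15 of 98 IP calls were higher and 83 lower. In the input libraries 22 passed (4.0%), 7 higher (1.27%) and 15 lower (2.73%), or 50 of 596 (8.39%) without replicate A, 18 higher (3.02%) and 32 lower (5.37%). The input calls with all libraries included miR-206-3p (1.07, edgeR adjusted p = 0.00611), a skeletal muscle miRNA, and miR-122-5p (1.10, edgeR adjusted p = 0.0444), the main liver miRNA. These 2 were named after their values were seen, and their enrichment changes were -0.24 and 0.40.

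The balance between the arms of a hairpin is a ratio within each library that no scaling factor can move. None of 122 hairpins with both arms measured passed by limma (0.0%), and 18 (14.8%) had an unadjusted p under 0.05. The 4 smallest p among those that moved towards the 5p arm were for miR-193b (2.94 ± 0.744 on the log2 scale, limma adjusted p = 0.16), miR-345, miR-23a and miR-140, and towards the 3p arm for miR-210 (-2.27 ± 0.654, limma adjusted p = 0.208), miR-27a, miR-669f and miR-674. Without replicate A, 2 of 124 hairpins passed. They were miR-183, with a change of 3.57 (limma adjusted p = 0.00148) that rests on summed 3p arm counts of 8 in the KD3 IP and 0 in the KD6 IP, and miR-23a, with a change of 2.85 (limma adjusted p = 0.0343).

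The share of mapped reads outside miRNA rows rose from input to IP in every pair of same-letter libraries. The rise was 18.5, 21.2 and 28.5 percentage points at KD3 and 22.4, 13.6 and 20.3 points at KD6. The difference in mean rise, -3.96 points at KD6 against KD3, had a two-sided exact permutation p of 0.5, where 3 against 3 cannot go below 0.1.

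The mature sequences were searched on their own strand for UNUAA and UNUAG, a context linked to another synthase, and for the PUS1 context, spelled out as AAUAA or AAUAG with A first, AGUAA or AGUAG likewise, CAUAA or CAUAG with C first, CGUAA or CGUAG likewise, and UAUAA or UAUAG with U first, UGUAA or UGUAG likewise. The words with U first also match UNUAA or UNUAG. The PUS1 context was found in 62 of the 475 tested sequences (13.1%), in 12.2% of the sequences of the 137 miRNAs with the lowest change and in 8.20% of those of the 138 miRNAs with the highest change. All 9 listed let-7 5p members held it, and among the miRNAs the study named so did miR-16-5p and miR-20a-5p. Among the calls without replicate A it was in 3 of the 12 that fell and have a sequence (miR-17-3p, miR-31-5p and miR-16-5p) and in 1 of the 7 that rose (miR-10b-5p). UNUAA or UNUAG was in 10.1% of all tested sequences. The mean number of uridines was 5.89 ± 2.09 (SD) in the former set and 6.34 ± 2.33 in the latter, and 6.18 ± 2.21 over all. A first base of U was held by 36.6% of the former and 44.3% of the latter, beside 42.3% of all.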

How the data were processed

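Small RNA was sequenced from NIH/3T3 cells, before IP (input) and from the RNA a Ψ antibody recovered. The authors ran the reads through SeqImp with the mm10 assembly, Ensembl and miRBase, and deposited estimated counts (expected counts) of mapped reads per mature miRNA and precursor, unnormalised, with reads that match several loci divided among them. Of the non-zero values 47.0% were not whole. Here rows of one mature miRNA were summed and rounded, the row of library totals was left out, and groups came from the labels. The members, lists and tests were chosen with earlier results of these data known.

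The enrichment change, (KD6_IP - KD6_INPUT) - (KD3_IP - KD3_INPUT), was tested with edgeR 4.0.16 (quasi-likelihood, median-ratio factors, filterByExpr, 18 libraries in 6 groups, Benjamini-Hochberg adjustment) in R 4.3.3, after testing on simulated data. The simulation without changes was rebuilt once, since its first form gave too many small p-values, traced to how it set miRNAs near 0, which is also where miR-17-3p and miR-7068-3p lie in the KD6 IP. The SE of an edgeR change was back-calculated as the size of the change divided by the square root of the quasi-likelihood F. It is approximate, above all for miRNAs near 0. Arm balance used limma 3.58.1 on log2((5p + 0.5)/(3p + 0.5)) over hairpins with both arms at a mean of at least 10 counts. DESeq2 1.42.0 and other scalings, filters and left-out libraries were alternatives.

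Named were every miRNA past the threshold (at most 12 per direction, or 6 without KD6_INPUT A), filled to 10 per direction by p among miRNAs of at least 100 CPM, the let-7 5p family, the miRNAs the study named, miR-17-3p, and the 4 smallest p per direction of arm balance. Same-letter KD3 and KD6 inputs deviated together (r = 0.238, 0.336 and 0.324). No other pair of groups did so for every letter. Depth was 241109 to 15099781 mapped reads.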

Additional observations from a re-analysis of the deposited data

Results flagged for a closer look

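The enrichment of miR-17-3p differed between days by the test of the difference itself, except on leaving out KD3_IP C, KD6_INPUT C or KD6_IP B. Its change was -5.01 with all libraries and -4.94 when KD6_INPUT A was left out. In that second fit the same test also passed for the following, each at n = 3 libraries a group except 2 in the KD6 input. Lower were miR-7068-3p (-6.67, a fitted value that depends on the count the model adds to zeros, since its KD6 IP libraries held none), miR-362-5p (-2.31), miR-344b-3p (-2.20), miR-17-5p (-2.06), miR-31-5p (-1.76), miR-16-5p (-1.65), miR-181d-5p (-1.57), miR-30c-1-3p (-1.56), miR-322-5p (-1.48), miR-345-3p (-1.30), miR-185-5p (-1.04) and miR-106b-3p (-0.97). Higher were miR-455-5p (1.45), miR-192-5p (1.38), miR-21a-5p (1.31), miR-674-3p (1.18), miR-381-3p (1.05), miR-30d-5p (0.94), miR-10b-5p (0.78) and miR-7a-5p (0.70). With the replicate letter as a block, 12 of the 21 passed, and miR-7a-5p, miR-10b-5p, miR-106b-3p, miR-455-5p, miR-381-3p, miR-322-5p, miR-362-5p, miR-344b-3p and miR-185-5p did not. miR-344b-3p, miR-345-3p and miR-185-5p fell outside the rule for named miRNAs and were named after their values were seen.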

How the results depend on the processing

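With all libraries the enrichment change gave 1 call, and 0 at an adjusted p under 0.01, 0 beyond 2-fold, 12 with no scaling factor, 8 with total mapped reads as library size, 14 with no abundance filter, 13 by DESeq2, 26 by limma voom with quality weights, 7 without replicate A of both KD6 groups and 21 without KD6_INPUT replicate A on the same miRNAs. Leaving out single libraries gave 0 to 63. The 12 and 8 calls with no factor and with total mapped reads were all lower, where the median over all miRNAs moved from 0.16 to -0.47 and -0.37.

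The alternatives to the fit without replicate A were chosen after seeing the data. Its 21 calls became 10 with TMM factors, 94 with no factor and 64 with total mapped reads (all lower in both), 51 with no filter, 1 with only the KD3 and KD6 libraries, 1 beyond 2-fold, 59 by DESeq2, and 0 to 100 on leaving out a further library, 0 without KD3_IP C or KD6_INPUT C and 100 without KD6_IP C. With the replicate letter as a block there were 12, all among the 21. The block changed no call of the enrichment change with all libraries.

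IP calls (112) were 55 at an adjusted p under 0.01, 64 with only the 12 libraries, 4 beyond 2-fold and 62 to 142 on leaving out single libraries. They were 98 with no factor (15 higher, 83 lower) and 89 with total mapped reads (18 higher, 71 lower), so their split by direction depended on the scaling. Input calls (22) were 7 at an adjusted p under 0.01, 12 with no factor, 10 with total mapped reads, 4 with only the 12 libraries, 96 by limma voom, 61 without replicate A of both KD6 groups, 0 beyond 2-fold (with an adjusted threshold of 0.05), 51 on the same miRNAs without KD6_INPUT A and 3 to 50 on leaving out single libraries. The input calls that were higher numbered 9 of 12 with no factor and 9 of 10 with total mapped reads, against 7 of 22 with median-ratio factors. Arm balance gave 0 to 6 calls on leaving out single libraries.

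Named miRNAs that turned direction were let-7b-5p (-0.25 with no factor, -0.14 with total mapped reads, -0.083 without replicate A of both KD6 groups, -0.000467 without KD6_INPUT A on the same miRNAs, and -0.011 to 0.62 on leaving out single libraries), let-7e-5p (-0.019 with TMM, -0.58, -0.48, -0.23 and -0.16 likewise, and -0.17 to 0.13 on leaving out single libraries), let-7g-5p (-0.072 with no factor), miR-98-5p (-0.29, -0.20 and -0.13) and miR-20a-5p (-0.81 to 0.066 on leaving out single libraries). The cause was not tested. Depth limits the KD6 input most, where 3 counts in replicate A were worth 13.4 CPM.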
